A study of Drosophila melanogaster with 2 samples.

Results

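The innexins are the 8 gap junction genes of Drosophila melanogaster, ogre, Inx2, Inx3, shakB, zpg, Inx5, Inx6 and Inx7. They were taken by symbol from an annotation of 13945 protein-coding genes, and every summit (position of highest signal in a called region) in the gene body or within 5 kb of it, or within 1 kb of a transcription start site (TSS), was assigned to them. The occupancy of a tagged protein was measured by chromatin immunoprecipitation and sequencing (ChIP-seq) in whole embryos of mixed sex, aged 0 to 24 h, from a transgenic line that stably expresses the CG15812 product with GFP at its C-terminus. Both samples carry this transgene and are biological replicates 1 and 2 of a single group. The antibody entry gives the target as pfk, which RefSeq lists as an older name of CG15812; Pfk in the annotation used here is another gene. A text label of both samples speaks of an input, whereas their assay and antibody entries describe immunoprecipitates, and they were treated as the latter. The lists of replicate 1, replicate 2 and the pooled replicates held 30000 regions each, background included. The authors' list thresholded by irreproducibility between replicates (IDR) held 2886 peaks, which are the pooled regions of highest signal. Signals are the authors' scores of a region, no source used here states how they were normalized, and the read depth is unknown.

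Innexins are membrane-spanning proteins that assemble into the gap junction channels of invertebrates, through which ions and small molecules pass between touching cells. ogre takes its name from the reduced optic ganglia of its mutants and acts with Inx2 in glia. Inx2 and Inx3 are epithelial innexins, shakB forms electrical synapses such as those of the giant fibre system, and zpg is needed in the germ line.

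The innexins divided into 2 strongly occupied genes and 6 with weak or no occupancy. Of the 8, 3 had an IDR summit within 1 kb of a TSS, namely ogre, Inx2 and shakB, beside 16.0% of all protein-coding genes. ogre and Inx2 ranked 4 and 46 among the pooled regions and shakB ranked 2314. The sequences at these summits, at a second ogre promoter, at Inx3 and at a pair of summits of bou, a gene nested in ogre, are shown first because the results turn on them. That of the bou start, in an untranslated region, is not shown. Capitals mark GGAACG, a 6-base sequence searched on either strand because it is frequent at the summits of these lists. Each line holds a summit with 50 bases on either side, read 5′ to 3′ on the strand named in it, except that of shakB, which gives 29 bases on the minus strand.

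ogre promoter, chrX:6981712-6981812, minus strand: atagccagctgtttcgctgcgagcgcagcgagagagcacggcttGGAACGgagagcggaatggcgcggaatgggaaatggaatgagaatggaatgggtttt
ogre upstream promoter, chrX:6985710-6985810, plus strand: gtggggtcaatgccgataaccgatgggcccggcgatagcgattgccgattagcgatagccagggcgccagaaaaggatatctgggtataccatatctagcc
bou coding exon, chrX:6986670-6986770, plus strand: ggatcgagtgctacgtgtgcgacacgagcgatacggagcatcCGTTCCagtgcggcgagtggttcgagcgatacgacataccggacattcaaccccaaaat
downstream of bou, chrX:6987201-6987301, plus strand: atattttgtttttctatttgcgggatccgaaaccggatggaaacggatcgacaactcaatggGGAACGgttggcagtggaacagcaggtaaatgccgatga
Inx2 promoter, chrX:6998464-6998564, plus strand: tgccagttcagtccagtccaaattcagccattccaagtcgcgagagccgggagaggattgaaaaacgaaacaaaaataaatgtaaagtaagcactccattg
shakB, chrX:20923920-20923948, minus strand: gcgccgaacGGAACGGAACGaacggagct
Inx3, below the IDR threshold, chr3R:28859286-28859386, minus strand: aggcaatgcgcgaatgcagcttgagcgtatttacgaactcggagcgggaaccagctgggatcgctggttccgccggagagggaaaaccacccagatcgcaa

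The strongest innexin peak lay at a single internal promoter of ogre. ogre (FBgn0004646, dm6 X, 6973620 to 6991318, minus strand) has 6 annotated transcripts that start at 5 TSSs. The summit at 6981762 had a pooled signal of 14844, with 8034 in replicate 1 and 6887 in replicate 2. It ranked 3 in replicate 1 and 4 in replicate 2, and the 3 lists placed it within 1 bp. It lay 79 bp upstream of the TSS of ogre-RA (6981683), in an intron of the longer transcripts, in a region called from 6980844 to 6983343 (2500 bp). The TSS of ogre-RB (6980994) also lay within 1 kb of this summit. A second summit lay 92 bp upstream of the TSS shared by ogre-RD and ogre-RF (6985668), with signals of 360.9 in replicate 1, 211.5 in replicate 2 and 572.1 pooled. The TSSs of the other transcripts had no IDR summit within 1 kb. At ogre-RC, which starts farthest upstream (6991318), the highest pooled signal within 1 kb was 41.7, and at ogre-RE (6977810) it was 39.8.

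**Figure D1:**
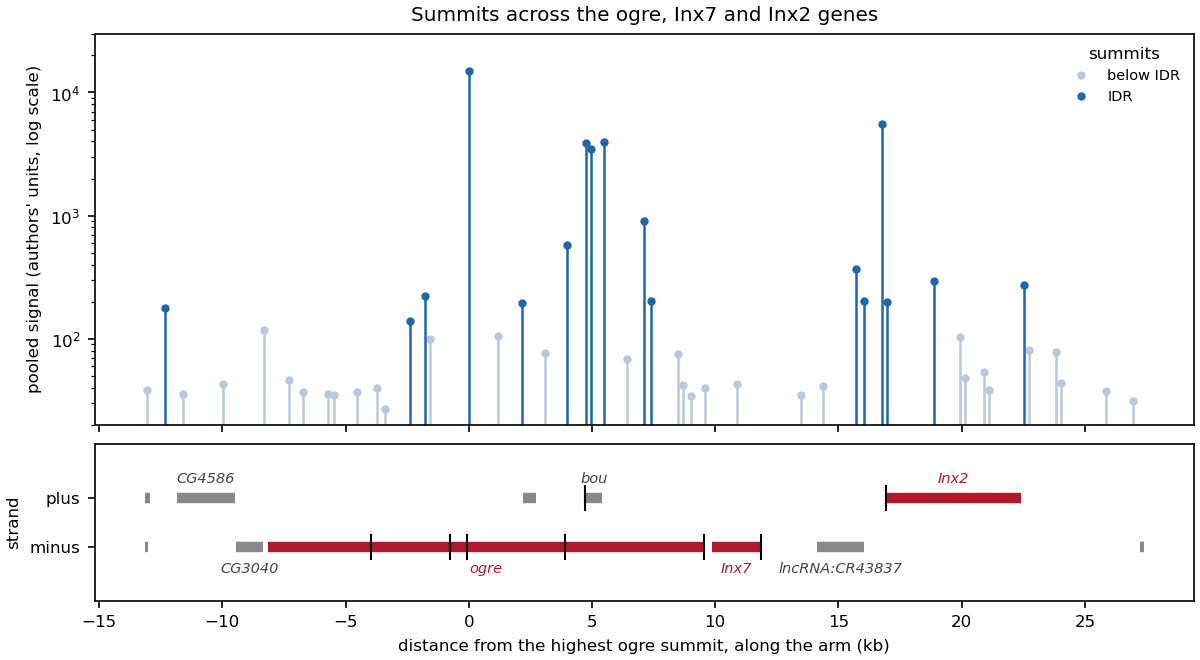
Pooled signal (log axis, authors' units) of each summit from 5 kb before ogre to 5 kb past Inx2, plotted by distance in kb from the highest ogre summit, with IDR summits in dark blue and the other pooled summits in light blue. Genes are drawn below by strand, innexins in red, with black ticks at the TSSs of the innexins and bou; the 5 summits that rank within the first 100 sit at the ogre-RA start, at bou and just before Inx2, and Inx7 holds no IDR summit.

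ogre held 10 IDR summits in its body and 11 with 5 kb on either side, and 7 protein-coding genes (0.0502%), ogre included, held as many. A longer gene can hold more summits, and the other 6 were all longer than ogre. Many of the ogre summits were nearer to the start of another gene. bou (FBgn0261284) encodes a Ly6 family protein needed for septate junctions, and it lies on the plus strand within an intron of ogre. Its start, coding exon and downstream flank carried summits with pooled signals of 3901, 3450 and 3981, at 28, 234 and 765 bp past the bou TSS. In replicate 1 the same summits had signals of 1908, 1675 and 2183, and in replicate 2 of 2025, 1436 and 1738. They share a called region of 3051 bp (6985436 to 6988486) with the second ogre promoter, so these 4 summits are not separate regions. The bou start summit also counts as an ogre promoter summit, because it lies 846 bp from the ogre-RD start. In an ogre intron farther upstream, summits at 6988874 and 6989138 had pooled signals of 909.6 and 201.8. The remaining ogre summits had pooled signals of 138.9 to 223 in introns and a 5′ untranslated exon. That in the exon (6983903, 193.3) lay 68 bp before the TSS of lncRNA:CR44084, a non-coding gene within ogre. The nearest ogre TSS was 1765 bp from it. That at 6979985 (223) was just outside the 1 kb rule, 1009 bp from the nearest ogre TSS, and the summit at 6969441 (178.5) lay past the ogre 3′ end, 477 bp before the TSS of CG4586. No IDR summit lay in a coding exon of an innexin.

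Inx2 was the other strongly occupied innexin. Inx2 (FBgn0027108, X, 6998672 to 7004151, plus strand) has 4 transcripts that share a single annotated TSS. The summit at 6998514, 158 bp upstream of it and intergenic, had a pooled signal of 5532, with 2928 in replicate 1 and 2646 in replicate 2, and ranked 46, 44 and 45 in these lists. In the same called region (6996962 to 6999209, 2248 bp) lay 3 weaker summits. That at 6998742, 70 bp past the TSS in the 5′ untranslated region, had signals of 268.7 and 166 in the replicates and 197.2 pooled, so the pooled value was below that of replicate 1. The summits at 6997796 and 6997486 lay 3 and 313 bp into lncRNA:CR43837, a non-coding gene that starts upstream of Inx2 on the other strand, with pooled signals of 201.7 and 371.2. Summits in the long 3′ untranslated region of Inx2 (7000630, pooled signal 291.6) and 159 bp past its 3′ end (275.3) were present in both replicates, with signals of 145.3 and 142 at the first and 155.5 and 117.3 at the second.

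Inx7 lies between these genes and had no promoter peak. Inx7 (FBgn0027106, X, 6991612 to 6993612, minus strand) starts 5059 bp from Inx2 and ends 293 bp from ogre. It forms gap junctions in the nervous system. It held 7 IDR summits within 5 kb, all outside the gene, and each was also assigned to ogre or Inx2. The nearest to its TSS was 3874 bp away. Within 1 kb of the TSS, the highest signal was 31.8 in replicate 1 (132 bp downstream), 31.6 in replicate 2 (upstream) and 43.2 among the pooled regions (969 bp downstream), so the lists did not share a summit there. The 5 kb rule separates neighbours of similar strength at this gene, since the Inx2 promoter summit lay 4902 bp from it and the bou start summit, just outside, 5098 bp.

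The cluster was among the stretches richest in IDR summits. The 40532 bp from 5 kb before ogre to 5 kb past Inx2 held 17 IDR summits in 10 separate called regions, or 4.19 per 10 kb, against 0.216 per 10 kb over the 6 chromosome arms and the same over X. Among 3300 consecutive stretches of this length on the 6 arms, the median held 0, and 2 (0.0606%) held 17 or more. Of those 2, 1 overlaps the cluster with 18 summits, and the other, at brat on 2L, held 20. Of the 17 summits, 5 ranked within the first 100 regions and 6 lay within 1 kb of an innexin TSS.

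shakB had a weak peak at 1 of its 7 TSSs. shakB (FBgn0085387, X, 20761071 to 20927050, minus strand) spans 165980 bp and has 8 transcripts. The summit at 20923923, 46 bp past the TSS of shakB-RI in a 5′ untranslated exon, had a pooled signal of 145.1, with 79.6 in replicate 1 and 62.9 in replicate 2. The pooled value is near the lowest pooled signal in the IDR list, 127.8. Of the other 6 TSSs, 1 had a pooled summit within 1 kb, at shakB-RC and shakB-RD (30.1). The second IDR summit of the locus, at 20760531 (pooled signal 187), lay 540 bp past the 3′ end of shakB and 422 bp into lncRNA:CR43838. The density was 0.114 IDR summits per 10 kb, lower than the 0.216 of the 6 arms.

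**Figure D2:**
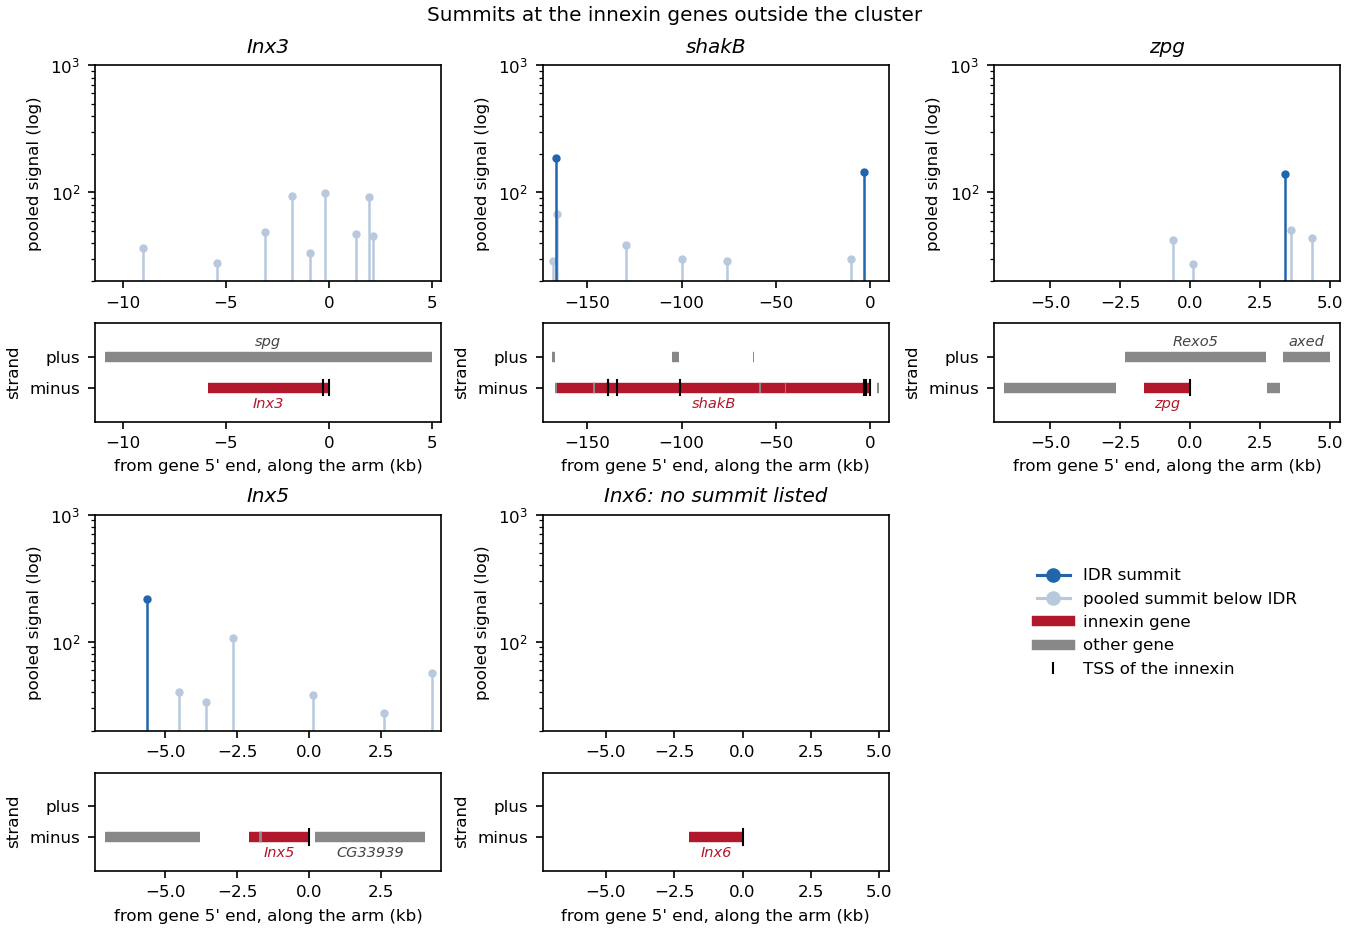
Pooled signal (log axis, authors' units) of summits at Inx3, shakB, zpg, Inx5 and Inx6 and 5 kb on either side, by distance in kb from the 5′ end of the gene along the chromosome arm. Dark blue marks IDR summits and light blue other pooled summits; the dark blue summit of the zpg panel lies at axed and that of the Inx5 panel past the 3′ end of Inx5, and Inx6 has none of either kind.

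Inx3 had a promoter summit below the IDR threshold. Inx3 (FBgn0265274, 3R, 28853606 to 28859497, minus strand) lies on the other strand within spg, which encodes an exchange factor of the DOCK family. The summit at 28859336, 122 bp upstream of the TSS of Inx3-RA and Inx3-RB and 161 bp past that of Inx3-RC, had a pooled signal of 98.4, with 63.7 in replicate 1 and 38.2 in replicate 2. Its pooled rank was 4400, and its rank was 3765 in replicate 1 and 6619 in replicate 2. The pooled list held 9 summits in the gene and 5 kb on either side, with signals of 28.1 to 98.4.

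The remaining members, zpg, Inx5 and Inx6, had no IDR summit at a promoter. zpg (FBgn0024177, 3L, 6604366 to 6606032, minus strand) lies in Rexo5 on the other strand, and its highest promoter signals were 48.1 in replicate 1 at 114 bp upstream, 29.7 in replicate 2 at 588 bp downstream and 42.2 pooled at 622 bp downstream. The IDR summit assigned to it (6609415, pooled signal 140.3) lay 3383 bp upstream and 90 bp into axed, a gene required for axon degeneration after injury. Inx5 (FBgn0030989, X, 19168777 to 19170883, minus strand) had a pooled promoter signal of 38.2 at 134 bp upstream, 19.8 in replicate 1 and no promoter summit in replicate 2. Its assigned IDR summit (19165229, pooled signal 216.4) lay 3548 bp past its 3′ end, with signals of 112.9 in replicate 1 and 111.5 in replicate 2. Inx6 (FBgn0027107, X, 20267821 to 20269769, minus strand) had no summit in any of the 4 lists within 5 kb. The nearest pooled summit was 9690 bp from the gene with a signal of 28.4, and the nearest IDR summit was 101834 bp away.

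**Figure D3:**
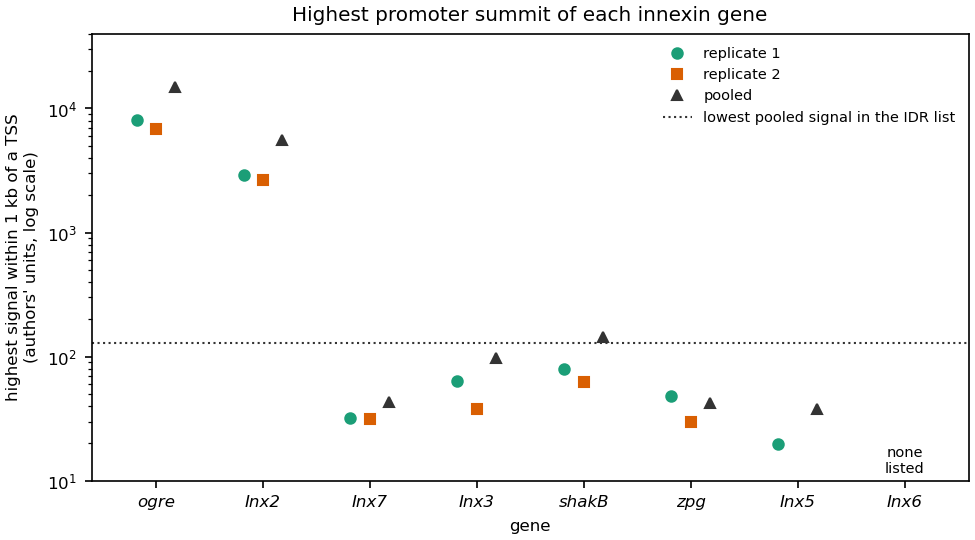
Highest signal within 1 kb of any TSS of each innexin gene (log axis, authors' units) in replicate 1, replicate 2 and the pooled list, with the lowest pooled signal of the IDR list, 127.8, as a dotted line. ogre and Inx2 are at 2646 or more in every list, the pooled value of shakB lies just above the line and that of Inx3 just below it.

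Counted over the family, 6 of the 8 genes had an IDR summit in the body or within 5 kb, beside 33.6% of protein-coding genes. Of these 6, Inx7, zpg and Inx5 had it only beyond the gene, and each of those summits was nearer to the start of another gene. A pooled summit of any strength lay within 1 kb of a TSS of 7 members, all but Inx6, beside 63.2% of genes, and in the body or within 5 kb of the same 7, beside 87.8%. Conversely, 1706 protein-coding genes (12.2%) had no pooled summit within 5 kb, as Inx6 had none. In all the loci held 21 IDR summits, 13 of them with an innexin TSS as the nearest TSS of a protein-coding gene, and 77 pooled summits. The IDR list is the 2886 pooled regions of highest signal, so every other pooled summit has a signal of 127.7 or less. In the loci these had median signals of 30.0 (shakB) to 46.8 (Inx3) in the 7 genes that had any, beside 40.1 over all 27111 such regions. In order of promoter signal, ogre was highest in both replicates, followed by Inx2, shakB and Inx3. Below these the order of zpg and Inx7 was reversed between replicates, with 48.1 and 31.8 in replicate 1 and 29.7 and 31.6 in replicate 2.

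The replicates were compared at these summits, which come from a list thresholded by the authors on the same replicates. Its peaks are those of highest pooled signal, so presence in it does not show agreement at a single summit. The values describe the spread between replicates and do not test it. All 21 IDR summits had a summit within 200 bp in both replicates. The signal was higher in replicate 1 at 18 of the 21, with a median log2 difference (replicate 1 minus replicate 2) of 0.32 and an SD over summits of 0.58. Of all 2886 IDR summits, 2860 had such a match, and 2018 of these were higher in replicate 1. Over the 2860, the median difference was 0.21 with an SD of 0.54. When each signal was divided by the median of its replicate, the median difference at the 21 summits was 0.091. Without this division, the difference was 0.22 at the ogre promoter and 0.15 at the Inx2 promoter. The widest differences were at summits beside stronger ones, 1.61 at 6997796 near Inx2 (147.2 and 48.3) and -1.38 at 6989138 in ogre (64.7 and 167.9). The pooled signals of these 2 summits, 201.7 and 201.8, were near the median of the IDR list, 201.6.

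**Figure D4:**
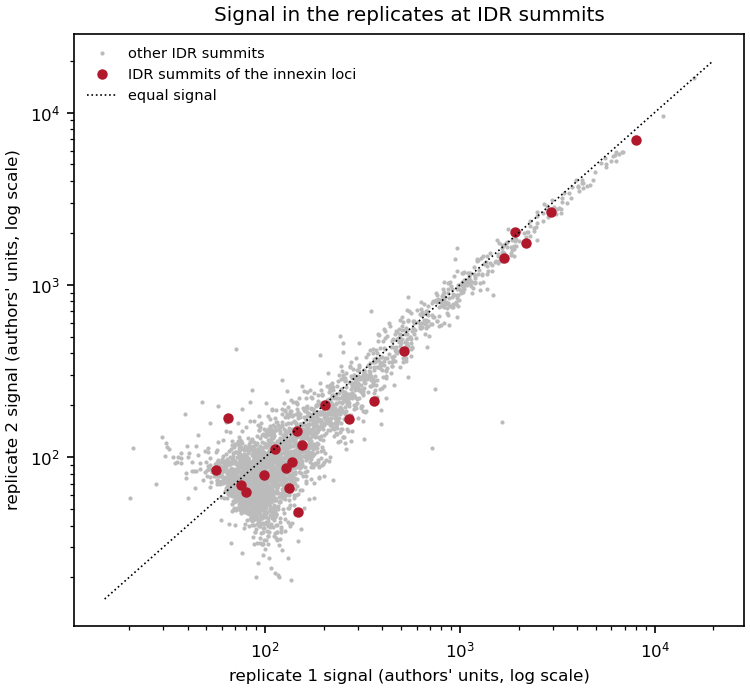
Signal in replicate 1 against replicate 2 (both log axes, authors' units) at the 2860 IDR summits with a match in both replicates, the 21 of the innexin loci in red and the others in grey, with a dotted line of equal signal. The 5 red points above 1000 lie close to the line, and the 2 farthest from it have signals under 200.

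GGAACG was found at 4 of the 21 IDR summits of the loci, within 50 bp, beside 14.7% of all IDR summits and 2.27% of windows 400 bp away. The 4 are the ogre-RA promoter, the bou coding exon, the flank downstream of bou and shakB. At ogre the copy began 1 bp from the summit, and at shakB 2 copies that overlap by a base lay on the minus strand 6 and 11 bp from it. The Inx2 promoter summit, ranked 46, held 0 copies, whereas 50.7% of the 300 highest IDR summits held at least 1. GGAAC without the last base was present at 9 of the 21 summits, beside 27.1% of all IDR summits and 666 of the 5772 windows 400 bp away, with 4 copies at the summit at 6989138. Of 11 motifs searched, TGGAAC was the most frequent in the loci, at 6 summits beside 13.0% of all IDR summits, and GAGAG was at 5 beside 19.0%. TATCGATA was at 0 of the 21, beside 2.43% of all IDR summits. The motif GGTCACAC was likewise at 0, beside 1.94%.

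Most copies of GGAACG were not at an IDR summit. Counted by their centres, 6 of the 57 copies in the loci lay within 50 bp of an IDR summit, beside 1.63% of the 34711 copies on the 6 arms. In the ogre locus these were 4 of 5 copies and in shakB 2 of 37. The Inx3 locus, which has no IDR summit, held 9 copies, of which 3 lay within 50 bp of a pooled summit of any strength, as did 10 of the 57 in all loci and 1537 of the 34711 on the arms. In the window from 250 bp before to 50 bp after a TSS, 3 innexins held GGAACG (ogre, shakB and Inx6), beside 9.84% of protein-coding genes. The copies in this window at Inx6, at the shakB-RF start and at the neighbouring shakB-RA and shakB-RE starts had no pooled summit within 1 kb of the TSS.

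Genes of other cell junctions were counted in the same way. Of 26 septate junction genes 8 had an IDR promoter summit (30.8%), and of 12 adherens junction genes 6, beside the same 16.0% of all genes. Of the 8, vari and pasi1 had a highest promoter summit nearer to the TSS of another protein-coding gene, and the bou summits are those already counted in the ogre locus. The highest septate junction genes after bou were kune, a claudin gene (486.8 pooled), dlg1, a scaffold gene that also acts in cell polarity (299.1), and Nrg, a cell adhesion gene (190.4). In the adherens junction list the highest were CadN, which encodes a neural cadherin (422.4), the ZO-1 homologue gene pyd (259.4), p120ctn (196.5) and alpha-Cat (191.7), both of which encode catenins. All of these but bou had lower signals than ogre and Inx2 by more than 10-fold in the pooled list.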

How the data were processed

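The 2 biological replicates of the single group were measured by ChIP-seq. Per the deposited notes, each list came from the alignments of its sample set and 1 control alignment shared by all, on dm6. The signal value and the −log10 q-value of each region, and its summit offset in bp, were deposited by the authors; the q-value was not used. The sources used here name no aligner, peak caller, version or IDR threshold. Regions on Y (3 pooled, 2 in replicate 1, 1 in replicate 2) were left out, and no columns belonged to other samples. Summits (region start plus offset) were compared with Ensembl release 115 (BDGP6.54, dm6 coordinates), transposable elements left out, and with the Release 6 genome sequence; all region ends lay inside the 6 arms. Coordinates are 1-based. Replicate summits were matched within 200 bp. Python 3.11.15 with pandas 2.3.3 was used, and the assignment and motif scan were tested on simulated data. The members, gene lists and motifs were chosen with earlier results of these data known, so counts are descriptions with no test and no p-value. Of 38 junction genes, 3 were matched through older symbols. Named genes are the innexins, the genes nearest their summits or inside the cluster, the highest members of each junction list and the genes nearest in signal. The host genes spg and Rexo5, vari, pasi1 and the other genes with as many summits as ogre were named after their values were seen. Printed windows exclude untranslated regions, apart from the 29 bases at shakB. A neighbouring gene is not reported here. The comparison of innexin proteins was not made.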

Additional observations from a re-analysis of the deposited data

How the results depend on the processing

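ogre, Inx2 and shakB were also the 3 promoter-bound innexins with the highest 2886 regions of either replicate alone, with a TSS distance of 500 bp and with overlap of the called region. In the 1443 IDR peaks of highest signal shakB was lost, which left 2, while the share of all protein-coding genes fell from 16.0 to 8.26%. With 1 TSS per gene, at the 5′ end of the gene record, 1 innexin (Inx2) of 8 had a promoter summit, beside 14.5% of all protein-coding genes, because the bound ogre and shakB TSSs are internal. The count of genes with a summit in or near them was 3 (ogre, Inx2 and shakB) within 2 kb and also 3 in the gene body alone, against 6 within 5 kb. The 21 summits became 13 in the gene bodies alone and, in a setting chosen after the data were seen, 13 with an innexin TSS as the nearest. GGAAC was at 9 summits where GGAACG was at 4. Leaving out a replicate gave promoter ranks of 3765 to 6619 for Inx3, 9180 to 10697 for Inx7 and 5779 to 10249 for zpg, whose order among weak regions is therefore uncertain, against 3 to 4 for ogre, 44 to 45 for Inx2 and 2538 to 2785 for shakB. Of 89 alternative values, 79 stayed within 1.5 times the reported count or rank, or within 1 SD of the reported difference. That total overstates stability, because 40 of the 89 were differences at single summits, of which 0 moved. A match within 100 bp returned the same difference wherever it found a summit. Division by the replicate median shifted each difference by 0.227, less than 1 SD. The 10 that moved were counts, shares or ranks, and a fall from 3 to 2 genes still passed the limit. Depth is unknown and sets a limit for summits near the IDR threshold, those of shakB and Inx3 among them. No paired analysis was possible because both replicates belong to a single group.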

Other observations

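In the promoter window of ogre a further sequence was repeated, which was noticed after the sequences were read. GGAATG, a relative of GGAACG, occurred 4 times within 50 bp of the ogre-RA summit, and 9 IDR summits in all held as many. It was at 4 of the 21 summits of the loci, the Inx2 promoter with 1 copy among them, beside 289 of all 2886 IDR summits, 27.0% of the 300 highest and 4.21% of windows 400 bp away.

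Genes with promoter summits nearest in log2 signal over the 2 replicates were sought among 2219 bound protein-coding genes. They were gol and CG42747 for ogre (distances of 0.32 and 0.33), pk and Dys for Inx2 (0.071 and 0.090) and CG32264 and p130CAS for shakB (0.0036 and 0.016). Distances were larger at ogre, where few genes reach its signals of 8034 and 6887, and gol, which encodes an E3 ubiquitin ligase, had 6879 and 5879.

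The other genes with as many IDR summits as ogre, with 5 kb on either side, were brat with 20, crp with 16, rdx and tara with 13 each, and sgg and tou with 11 each. Their lengths ran from 24175 to 64997 bp, against 17699 bp for ogre.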
